A study of Mus musculus with 6 samples.

Results

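The genes described here are 10 nutrient carriers and receptors of the T cell surface: the glucose transporters Slc2a1 and Slc2a3, the amino acid transporters Slc7a5, Slc3a2, Slc1a5, Slc38a1 and Slc38a2, the lactate transporters Slc16a1 and Slc16a3, and Tfrc, the transferrin receptor. They were chosen by name, as gene families that bring sugars, amino acids, lactate and iron across the plasma membrane. The rule uses no measured value, but the set was drawn up when earlier results of these data were known. All 10 were found among the 15319 genes listed in the deposited table. RNA-Seq was performed on Tregs (regulatory T cells, which express Foxp3) taken from lung tumors, with 3 libraries from WT mice and 3 from cKO mice. The WT mice were Foxp3Yfp-Cre, and the cKO mice were Xrcc6flox/floxFoxp3Yfp-Cre, in which Cre removes Xrcc6, the gene of the DNA repair protein Ku70, from Foxp3-expressing cells. Both groups therefore carried the Foxp3-driven YFP-Cre allele, and the floxed Xrcc6 allele separated them. Mice of both groups were 8 to 10 weeks old, received LLC cells (a mouse lung carcinoma line) through the tail vein, and were sampled 21 days later. The sources used here do not say whether a library came from 1 animal or from pooled animals, so the p-values measure the spread between these libraries, which may be technical.

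Resting T cells live largely on what little they import, and an activated T cell places more glucose, amino acid and iron carriers on its surface as it grows and divides. Glucose feeds glycolysis, leucine entering through the Slc7a5 and Slc3a2 pair is sensed by mTORC1, glutamine feeds the tricarboxylic acid cycle, and iron taken up with transferrin is needed for respiration and DNA synthesis. Tumors are often poor in glucose and rich in lactate, and Tregs are known for their ability to use lactate there. Transcript abundance is 1 layer of this control, since these carriers are also regulated by their trafficking to and from the cell surface.

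The libraries held 19032620 to 23159815 counts each, at 19032620 to 21707706 for WT and 20762042 to 23159815 for cKO. WT replicate 2 stood apart from the others, with 11513 genes detected against 14442 to 14737 in the other 5 libraries and a highest correlation with any library of 0.930, where each of the others reached at least 0.991. The comparisons of the members are therefore given with and without it. Where 3 values are listed for a group, they are in the order of its replicates 1, 2 and 3. Xrcc6 had 20.9, 63.1 and 23.8 CPM (counts relative to each library's TMM-scaled total) in the WT group against 5.24, 3.51 and 4.18 CPM in the cKO group. The labelled cell type had its markers in all libraries, as Foxp3 ranged from 150.4 to 241 CPM in WT and from 189 to 282 CPM in cKO. Of 9 marker lists, the sums of the 6 T cell and Treg markers ranged from 3596 to 4401 CPM in WT and from 3682 to 3970 CPM in cKO. The 10 macrophage and dendritic cell markers summed to 198, 683 and 712 CPM in WT, against 241, 569 and 1067 CPM in cKO. The red blood cell markers, 5 of 6 with counts, summed to 0 to 9.75 CPM in WT and 10.9 to 36.1 CPM in cKO, and all 5 were at 0 in WT replicate 2. The neutrophil markers, 6 of 7 with counts, summed to 3.73 to 11.0 CPM in WT and 9.14 to 14.1 CPM in cKO. Retnlg and Ngp were at 0 in all 3 WT libraries and S100a9 was higher in every cKO library than in any WT library, none of these above 1.91 CPM. S100a8, Ltf and Csf3r overlapped between the groups, with S100a8 highest in WT replicate 2 (7.05 CPM) and Ltf highest in WT replicate 1 (1.34 CPM). The ranges of the other 5 lists overlapped between the groups, at 60.4 to 86.4 and 69.7 to 94.4 CPM for endothelial cells, 36.5 to 103 and 37.6 to 69.4 CPM for epithelial cells, 15.01 to 65.0 and 12.5 to 54.3 CPM for B and plasma cells, 5.26 to 21.6 and 20.3 to 22.5 CPM for CD8 T and NK cells, and at most 2.97 and 3.51 CPM for stromal cells. In these bulk samples, fewer cells of a type and less RNA per cell cannot be told apart.

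All 10 nutrient genes were expressed in every library, and their estimated folds, cKO over WT, lay between 0.784 and 1.27. Larger changes are not excluded for some members, as the 95% interval of the fold ran from 0.433 to 1.47 for Slc16a3. Slc2a3 was the only member higher in cKO over the 6 libraries, at 1.27-fold, and the other 9 were lower, at log2 fold changes between -0.35 and -0.04. The widest gap downward was that of Tfrc, at 0.784-fold. None of the 10 passed an adjusted p of 0.05 in edgeR's quasi-likelihood test, where the adjusted p was 0.984 for 9 members and 0.993 for Slc7a5, and 0.997 for all 10 without WT replicate 2. Of all 15315 genes tested, 0% passed over the 6 libraries and 0.00654%, which is 1 gene, passed without WT replicate 2, while DESeq2 called 2 genes over the 6 libraries and none of them was a member. Xrcc6 was the gene that passed in edgeR without WT replicate 2 (adjusted p 0.0196), and DESeq2 called it over the 6 libraries (adjusted p 1.2e-05). In edgeR over the 6 libraries Xrcc6 was at 0.120-fold with a p of 0.000306 before adjustment, yet its adjusted p was 0.984. The adjusted p over the 6 libraries thus did not set even the removed gene apart, and it does not show that a member was unchanged. At an unadjusted p of 0.05, 1 member (Slc2a3) was higher in cKO, beside 0.94% of all genes, and 0 were lower, beside 0.868%. Without WT replicate 2, 0 members were higher, beside 1.52% of all genes, and 1 (Tfrc) was lower, beside 1.5%. Groups that did not overlap, with all 3 cKO libraries above all 3 WT libraries, occurred for 1 member (Slc2a3) and for 5.01% of all genes, and the opposite order occurred for 1 member (Tfrc) and for 3.23%. The median log2 fold change of the 10 members was -0.27, against 0.04 over all genes, and without WT replicate 2 it was -0.12, against -0.01.

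**Figure D1:**
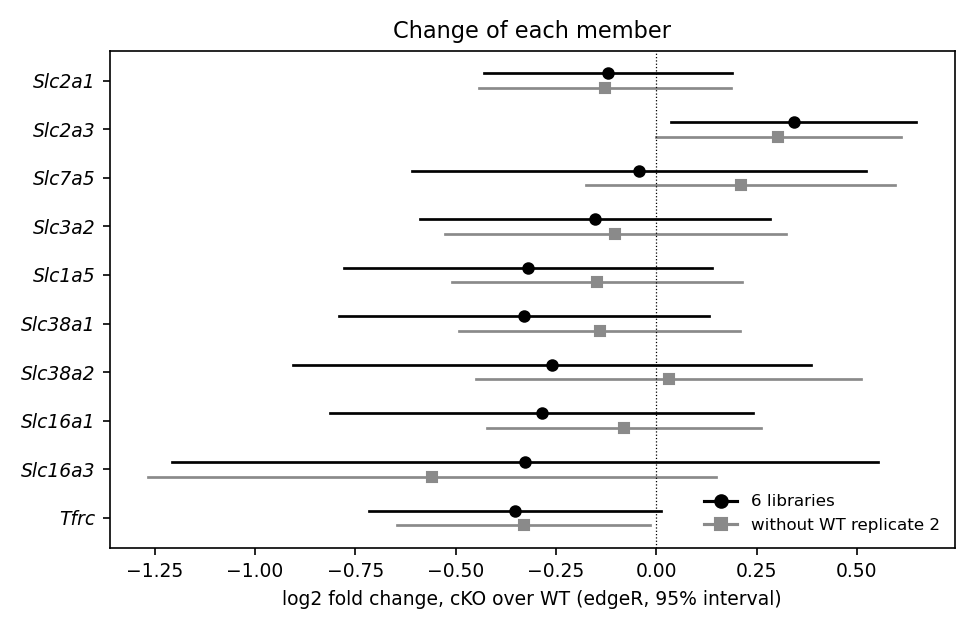
Log2 fold change of each member, cKO over WT, with its 95% interval from edgeR, over 6 libraries (black circles) and without WT replicate 2 (gray squares). The 6-library interval of Slc2a3 lies above 0, while those of the other 9 members cross 0. Without WT replicate 2 the interval of Tfrc lies below 0, and the points of Slc7a5 and Slc38a2 move to the right of 0.

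To compare the genes with each other, CPM was divided by the length of each gene's merged exons in kb. The Slc3a2 transcript was the most abundant of the set, at 147 ± 19.4 CPM per kb (SD, n = 6 libraries), followed by Slc1a5 at 78.0 ± 15.6 CPM per kb. A middle group held Slc2a1 at 23.9 ± 1.90, Slc38a2 at 21.7 ± 6.12, Slc7a5 at 13.2 ± 2.83, Slc38a1 at 11.8 ± 2.51 and Slc2a3 at 10.9 ± 1.57 CPM per kb. Tfrc at 6.76 ± 1.02, Slc16a3 at 6.64 ± 2.71 and Slc16a1 at 6.62 ± 1.40 CPM per kb were the least abundant. The ranges of neighbors in this order did not overlap between Slc3a2 and Slc1a5, between Slc1a5 and Slc2a1, and between Slc2a3 and Tfrc. Slc38a2 was above Slc7a5 in 6 of 6 libraries, although their ranges overlapped. The remaining neighbors changed places from library to library, since Slc2a1 was above Slc38a2 in 4 of 6, Slc7a5 above Slc38a1 in 4, Slc38a1 above Slc2a3 in 4, Tfrc above Slc16a3 in 4, and Slc16a3 above Slc16a1 in 3. The length used mattered most for Slc38a1, whose merged exons span 17236 bases and whose longest transcript has 7266. With the longest transcript its rank was 4 of 10, at 28.0 ± 5.97 CPM per kb, and 6 members kept their rank.

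**Figure D2:**
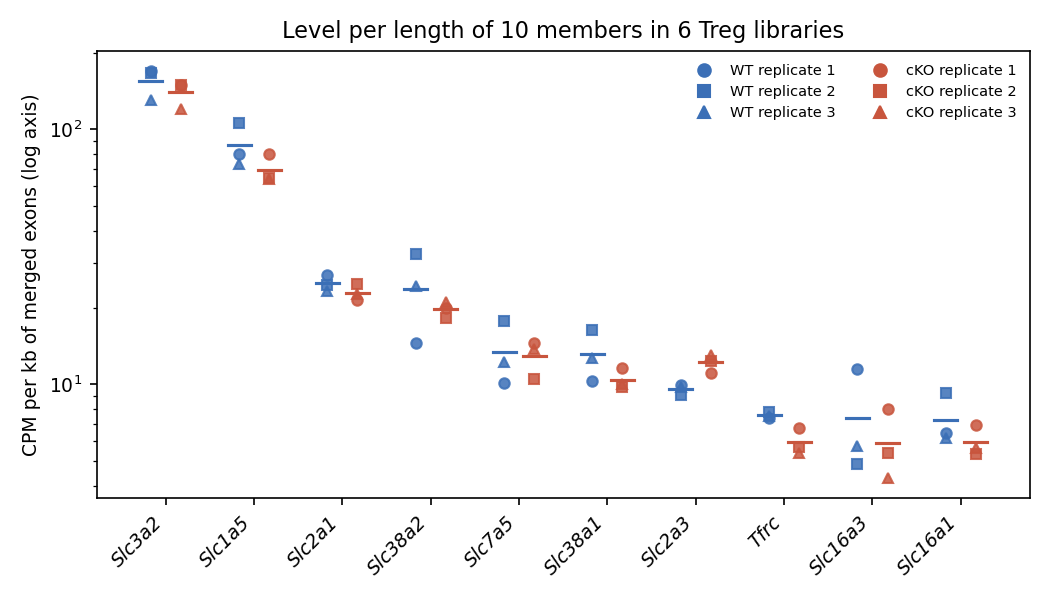
Level of each member in each library, as CPM per kb of merged exons on a log axis, with WT in blue, cKO in red, symbols for the replicates and bars for the group means. Slc3a2 and Slc1a5 stand above the other 8 members in every library, and the WT and cKO points overlap for all members but Slc2a3 and Tfrc.

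Of the facilitative glucose transporters, Slc2a1 was slightly lower in cKO and Slc2a3 was higher. Slc2a1, which encodes GLUT1, the main glucose transporter of activated T cells, lies on chromosome 4 (GRCm38, 119108711 to 119137983, plus strand). Its WT libraries had 94.0, 86.4 and 81.4 CPM, against 75.1, 86.5 and 79.1 CPM in its cKO libraries. The groups overlapped, and cKO replicate 2 reached the middle of the WT range. The means were 87.3 ± 6.38 CPM in WT and 80.2 ± 5.81 CPM in cKO (SD, n = 3), a log2 fold change of -0.12 (SE 0.13) over 6 libraries and -0.13 without WT replicate 2. The antisense genes Gm12867 and Gm12868 and the miRNA gene Mir1957a overlap Slc2a1, and whether reads were counted by strand is not given in the sources used here.

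Slc2a3 encodes GLUT3, a glucose transporter of high affinity, and lies on chromosome 6 (122727809 to 122801640, minus strand). Its values were 72.2, 65.9 and 70.9 CPM for WT, and 80.6, 89.8 and 94.6 CPM for cKO. Every cKO library was above every WT library. The means were 69.7 ± 3.34 CPM in WT and 88.3 ± 7.07 CPM in cKO (SD, n = 3), and the fold of 1.27 had a 95% interval from 1.03 to 1.57. The log2 fold change was 0.34 (SE 0.13), with an edgeR p of 0.0327 before adjustment and an adjusted p of 0.984. Without WT replicate 2 the log2 fold change was 0.30 and the edgeR p before adjustment was 0.0502, and when any other single library was left out that p ranged from 0.0374 to 0.140, the highest without cKO replicate 3. In an exact two-sided permutation test the p was 0.1, the smallest that 3 libraries against 3 allow. Beside these values, the macrophage and dendritic cell sum was 198, 683 and 712 CPM for WT and 241, 569 and 1067 CPM for cKO, so that both this sum and Slc2a3 were lowest in replicate 1 and highest in replicate 3 among the cKO libraries but not among the WT libraries. The part of these cells, and of the neutrophil markers given above, in the level of Slc2a3 was not tested. A processed pseudogene, Gm4482, overlaps Slc2a3 on the same strand.

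As both genes carry the same sugar, their ratio was taken within each library. The ratio of Slc2a3 to Slc2a1, as CPM per kb, was 0.372, 0.369 and 0.422 for WT, against 0.520, 0.502 and 0.579 for cKO. The ratios did not overlap, and all 3 cKO ratios were above the highest WT ratio. The mean was 0.387 ± 0.0296 in WT and 0.534 ± 0.0400 in cKO (SD, n = 3), a difference of 0.46 on the log2 scale against a spread within groups of 0.11. It was 0.43 without WT replicate 2 and 0.40 to 0.52 with any 1 library left out. Slc2a1 thus remained the more abundant glucose transporter transcript per length in all 6 libraries. The Slc2a3 to Slc2a1 ratio was the only one of 4 such ratios in which the groups did not overlap. In an exact two-sided permutation test of the log2 ratios its p was 0.1, the smallest that 3 libraries against 3 allow. The lowest p of the other ratios in that test was 0.6. How often the groups do not overlap in ratios of other gene pairs was not computed, and Slc2a3 alone already did not overlap.

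**Figure D3:**
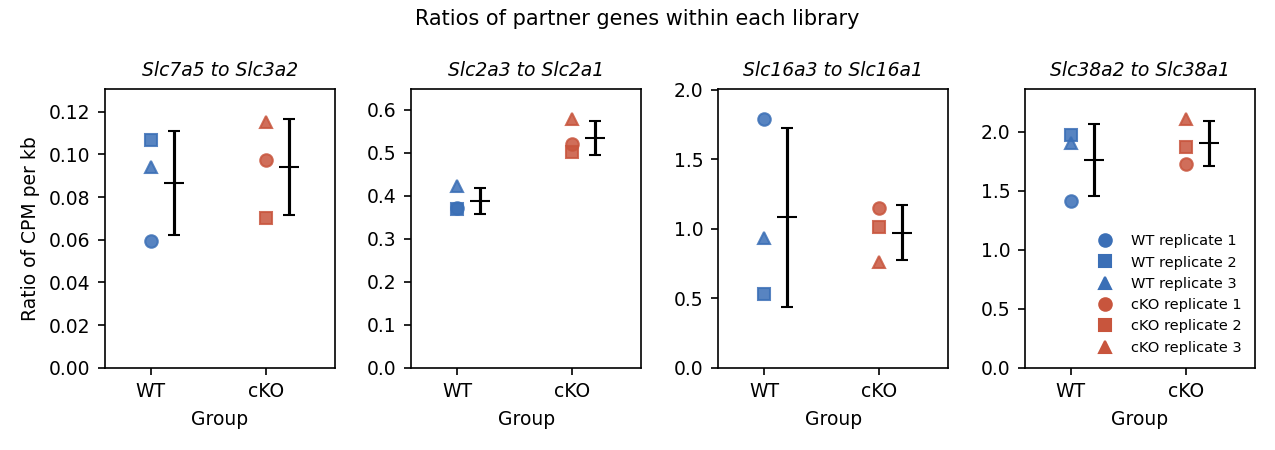
Ratio of CPM per kb of partner genes within each library, for 4 pairs, with WT in blue, cKO in red, symbols for the replicates and black bars for the group mean and SD (n = 3). The Slc2a3 to Slc2a1 ratio is higher in all 3 cKO libraries than in any WT library, and the groups overlap for the other 3 pairs.

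For the 5 amino acid transporters of the set, the groups overlapped. Slc3a2 and Slc7a5 form the CD98 heterodimer, in which the Slc3a2 heavy chain brings the Slc7a5 light chain (LAT1), an exchanger of large neutral amino acids such as leucine, to the surface. Slc3a2, on chromosome 19 (8706882 to 8723369, minus strand), had 598, 587 and 459 CPM in WT and 527, 527 and 424 CPM in cKO. In both groups replicate 3 was the lowest, and the groups overlapped. The log2 fold change was -0.15 (SE 0.19), with a 95% interval of the fold from 0.664 to 1.22, and -0.10 without WT replicate 2. Its deposited counts were not whole numbers, so part of its reads had been shared with other features by estimate.

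Slc7a5, on chromosome 8 (121881150 to 121907694, minus strand), had 37.4, 65.7 and 45.4 CPM in WT and 53.8, 39.0 and 51.3 CPM in cKO. WT replicate 2 was the highest of the 6 libraries, and the cKO values lay within the WT range. The means of 49.5 ± 14.5 CPM in WT and 48.0 ± 7.90 CPM in cKO gave a log2 fold change of -0.04 (SE 0.24), and the 95% interval of the fold, 0.655 to 1.44, spans changes in either direction. Without WT replicate 2 the sign turned, at a log2 fold change of 0.21 with an edgeR p of 0.246 before adjustment and an adjusted p of 0.997. The light chain was far less abundant than its heavy chain, which also pairs with other light chains. The ratio of Slc7a5 to Slc3a2 per length was 0.0596, 0.107 and 0.0941 for WT against 0.0972, 0.0704 and 0.115 for cKO, and the groups overlapped. The difference was 0.13 on the log2 scale, and 0.30 without WT replicate 2. A gene annotated as protein-coding on the other strand, Gm20388, overlaps Slc7a5. Whether reads were counted by strand is not given in the sources used here.

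The 3 carriers of glutamine and other small neutral amino acids were Slc1a5 (ASCT2, a sodium-dependent exchanger) and the sodium-coupled importers Slc38a1 (SNAT1) and Slc38a2 (SNAT2). Slc1a5, on chromosome 7 (16781340 to 16798274, plus strand), had 334, 444 and 306 CPM in WT and 334, 269 and 266 CPM in cKO. WT replicate 2 was the highest library, and cKO replicate 1 lay within the WT range, so the groups overlapped. Its log2 fold change was -0.32 (SE 0.20) over 6 libraries and -0.15 without WT replicate 2, with edgeR p of 0.145 and 0.377 before adjustment and adjusted p of 0.984 and 0.997.

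Slc38a1 and Slc38a2 are neighbors on chromosome 15 (96571418 to 96642913 and 96687392 to 96699730, both minus strand). Slc38a1 had 177, 283 and 219.6 CPM in WT and 199, 169 and 173 CPM in cKO. Slc38a2, which is known to be induced when amino acids are scarce, had 128, 286 and 214 CPM in WT and 176, 161 and 187 CPM in cKO. WT replicate 2 was the highest library for both genes and WT replicate 1 the lowest WT library, and the cKO libraries were closer together, with SDs of 16.6 CPM for Slc38a1 and 12.8 CPM for Slc38a2 against 53.0 and 79.1 CPM in WT. The log2 fold change of Slc38a1 was -0.33 (SE 0.20), and -0.14 without WT replicate 2. That of Slc38a2 was -0.26 (SE 0.28), and 0.03 without WT replicate 2. Without WT replicate 1 instead, the log2 fold changes were -0.48 for Slc38a1 and -0.52 for Slc38a2, with edgeR p of 0.0304 and 0.0246 before adjustment. The size of both differences, and the direction of that of Slc38a2, thus depended on which WT library was kept. Their ratio, Slc38a2 to Slc38a1 per length, was 1.41, 1.97 and 1.90 for WT and 1.73, 1.87 and 2.11 for cKO, with overlapping groups and a difference of 0.12 on the log2 scale, or 0.21 without WT replicate 2.

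The lactate carriers were the least abundant transporters of the set. Slc16a1 encodes MCT1, which moves lactate and pyruvate with a proton in either direction, and lies on chromosome 3 (104638668 to 104658462, plus strand). Slc16a1 had 28.5, 40.8 and 27.3 CPM in WT and 30.8, 23.5 and 24.9 CPM in cKO. WT replicate 2 was again the highest library, and the groups overlapped. Its log2 fold change was -0.29 (SE 0.23), and -0.08 without WT replicate 2.

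Slc16a3 encodes MCT4, known as the lactate exporter of strongly glycolytic cells and as a gene induced in hypoxia, and lies on chromosome 11 (120948480 to 120960868, plus strand). Its values of 61.3, 25.9 and 30.5 CPM for WT and 42.5, 28.6 and 22.8 CPM for cKO were the most variable of the set. WT replicate 1 was the highest library, cKO replicate 3 the lowest, and the groups overlapped. The coefficient of variation was 49.0% in WT and 32.3% in cKO, while those of the 10 members together reached down to 2.91% in WT (Tfrc) and 7.24% in cKO (Slc2a1). On the log2 scale the fold change was -0.33 (SE 0.38) over 6 libraries, -0.56 without WT replicate 2 and 0.15 without WT replicate 1, so that a single WT library set its sign. The ratio of Slc16a3 to Slc16a1 per length was 1.79, 0.529 and 0.931 for WT against 1.15, 1.01 and 0.762 for cKO. The difference of this ratio was 0.00 on the log2 scale and -0.43 without WT replicate 2. Which of the lactate carriers was more abundant therefore changed from library to library in both groups. Slc16a3 counts were also not whole numbers in the deposited table.

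Basigin (Bsg) and embigin (Emb) are the membrane partners that carry monocarboxylate transporters to the surface. Bsg had 195, 73.5 and 141 CPM in WT and 143, 165 and 146 CPM in cKO, with WT replicate 2 far below the other 5 libraries. Its log2 fold change was 0.15 over 6 libraries and -0.15 without that library. Emb was at 300.1, 481 and 364 CPM in WT and at 371, 418 and 426 CPM in cKO, with log2 fold changes of 0.09 and 0.29.

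Tfrc encodes CD71, which takes up iron bound to transferrin, and lies on chromosome 16 (32608920 to 32632794, plus strand). Its mRNA is a textbook case of control by iron: hairpins named iron-responsive elements (IREs) in the 3′ UTR bind iron regulatory proteins when iron is scarce, which protects the mRNA from decay, whereas an IRE in the 5′ UTR of the ferritin mRNAs blocks their translation under the same condition. IREs were searched in the longest coding GENCODE vM21 transcripts (GRCm38) of Tfrc, Fth1, Ftl1, Slc11a2 and Slc40a1. The pattern was an unpaired C, 5 paired bases, a 6-base loop of CAGTG and then A, C or T, and 5 paired bases, with G-T pairs allowed. Tfrc had 4 such matches in the 3′ UTR of its 4890-base transcript. The sequences printed below, which begin some bases before the unpaired C, start at positions 3315, 3694, 3759 and 3806 of the transcript. They are shown with the ferritin elements because Tfrc was the member whose cKO libraries all lay below WT and the ferritins share its hairpin. Slc40a1 also had a match in its 5′ UTR, at position 90 when counted in the same way, which is not printed. The Slc11a2 transcript searched had none. The pattern allows no unpaired base between the C and the loop, and only 1 transcript of each gene was searched. The lack of a match therefore does not show that Slc11a2 has no IRE. The loop is in capitals, and the sequences read 5′ to 3′ in the DNA letters of the transcript file.
Tfrc IRE 1: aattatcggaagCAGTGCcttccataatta
Tfrc IRE 2: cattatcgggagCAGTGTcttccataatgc
Tfrc IRE 3: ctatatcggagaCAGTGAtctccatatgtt
Tfrc IRE 4: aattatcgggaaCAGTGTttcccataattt
Fth1 IRE: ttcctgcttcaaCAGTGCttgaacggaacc
Ftl1 IRE: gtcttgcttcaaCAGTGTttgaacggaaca
A match is a description of the sequence. The table gives no measure of IRE binding.

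Tfrc had 45.7, 48.4 and 46.5 CPM in WT and 41.9, 35.2 and 33.2 CPM in cKO. All 3 cKO libraries were below all 3 WT libraries, which were close together. The means were 46.9 ± 1.37 CPM in WT and 36.7 ± 4.54 CPM in cKO (SD, n = 3), and the fold of 0.784 had a 95% interval from 0.609 to 1.01. The log2 fold change was -0.35 (SE 0.16), with an edgeR p of 0.0564 before adjustment and an adjusted p of 0.984. Without WT replicate 2 it was -0.33, with an edgeR p of 0.0418 before adjustment, and DESeq2 gave 0.0364 over 6 libraries. In an exact two-sided permutation test the p was 0.1, the smallest possible. When any 1 library was left out, the log2 fold change stayed between -0.46 and -0.28. The edgeR p before adjustment then ranged from 0.0410 to 0.202, the highest without cKO replicate 3. The macrophage and dendritic cell sums rank the cKO libraries in the opposite order to Tfrc, at 241, 569 and 1067 CPM for 41.9, 35.2 and 33.2 CPM, whereas in WT Tfrc differed little at sums of 198 to 712 CPM. The part of these cells in the level of Tfrc was not tested. Red cell precursors are known to carry much transferrin receptor, and the red blood cell markers summed to 10.9 to 36.1 CPM in cKO, where Tfrc was lower, and to 0 to 9.75 CPM in WT. The part of these cells in the level of Tfrc was not tested either.

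The ferritin chains overlapped between the groups. Fth1, the ferritin heavy chain, had 2228, 2528 and 2338 CPM in WT and 1881, 2242 and 2379.8 CPM in cKO, with a log2 fold change of -0.13, and -0.07 without WT replicate 2. Ftl1, the light chain, was at 1376, 2493 and 2103 CPM in WT and at 1356, 1739 and 2199.9 CPM in cKO, with a log2 fold change of -0.17, which turned to 0.02 without WT replicate 2. Replicate 1 was the lowest library of each group for both chains. Over the 19 genes of iron handling with counts, 10 had a log2 fold change above 0 and 9 below, 0 passed an unadjusted p of 0.05, and the median was 0.03 over 6 libraries and -0.02 without WT replicate 2. In 2 of the 19, named after their values were seen, the cKO libraries were all above the WT libraries, an order found for 5.01% of all genes. Pcbp2, a chaperone that delivers iron to ferritin, had 680.5, 628 and 649 CPM in WT and 736, 729.7 and 759.5 CPM in cKO, with an edgeR p of 0.280 and a DESeq2 p of 0.0443, both before adjustment. Ncoa4, the receptor that brings ferritin to the lysosome, had 83.2, 16.3 and 82.3 CPM in WT and 84.5, 89.4 and 88.3 CPM in cKO, with log2 fold changes of 0.53 and, without WT replicate 2, its lowest library, 0.08.

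The WT libraries were not alike in these genes. WT replicate 2 was the highest WT library for 6 of the 10 members, as it was for 42.8% of the 8447 genes at a mean of at least 10 CPM. Relative to the mean of WT replicates 1 and 3 it had 1.67 times as much Slc38a2, 1.58 times as much Slc7a5, 1.46 times as much Slc16a1, 1.42 times as much Slc38a1 and 1.39 times as much Slc1a5. The ratio was closer to 1 for Slc3a2 at 1.11 times, Tfrc at 1.05, Slc2a1 at 0.985 and Slc2a3 at 0.921 times, and it had 0.565 times as much Slc16a3. The 5 members furthest above had log2 fold changes of -0.33 to -0.04 over 6 libraries and of -0.15 to 0.21 without it, while Slc2a3 and Tfrc moved from 0.34 to 0.30 and from -0.35 to -0.33. Counting error was 1.07% to 4.52% of the value in the library with the fewest counts of each member. For Slc2a1, at 2.53%, it exceeded the gap of WT replicate 2, and for Tfrc, at 3.69%, it was close to that gap.

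**Figure D4:**
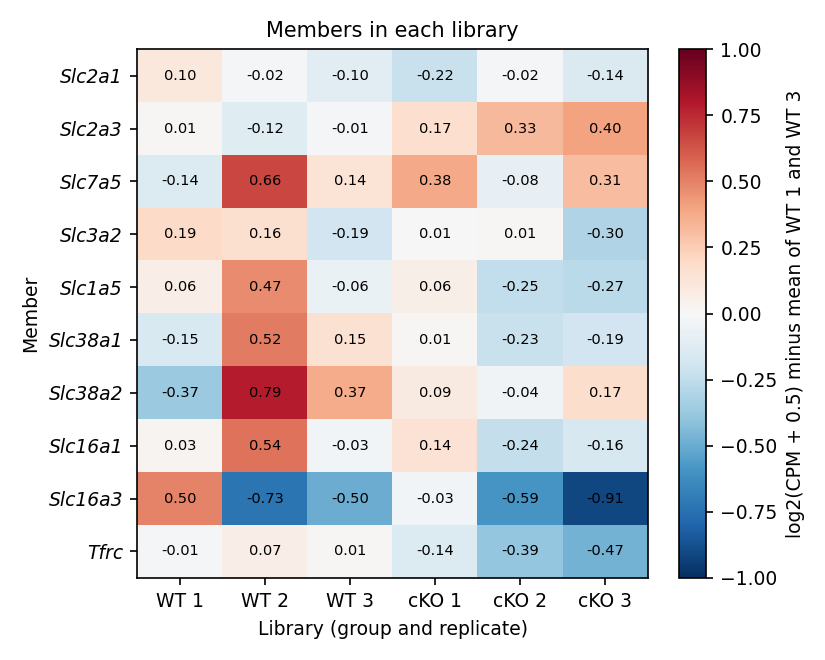
Each member (rows) in each library (columns), as log2(CPM + 0.5) minus the mean of WT replicates 1 and 3, with red above and blue below that mean and the value printed in each cell. WT replicate 2 is red for Slc7a5, Slc1a5, Slc38a1, Slc38a2 and Slc16a1, all 3 cKO libraries are red for Slc2a3 and blue for Tfrc, and Slc16a3 varies most.

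Some members followed each other closely across libraries, measured as the root-mean-square difference of their centered log2 CPM values. The closest pair was Slc1a5 and Slc16a1, at 0.0470 over 6 libraries and 0.0498 over the 5 without WT replicate 2, although 1 carries glutamine and the other lactate. Slc38a1 was also nearest to Slc16a1, at 0.116, and Tfrc was nearest to Slc1a5, at 0.145. Slc2a1 and Slc3a2 were nearest to each other, at 0.137. Slc7a5 and Slc38a2 were each nearest to Slc38a1, both at 0.185, and without WT replicate 2 they were nearest to each other, at 0.190. Slc2a3 was nearest to Slc2a1, at 0.245, and without WT replicate 2 to Slc7a5, at 0.221, and Slc16a3 was the farthest from any other member, at 0.399 from Slc3a2. These values describe 6 libraries and share the scaling of each library.

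The relatives, partners and regulators of the 10 genes were described from 5 wider lists with 84 genes, of which 70 had counts. Of these 70, 35 had a log2 fold change above 0 and 35 below, with a median of -0.01 over 6 libraries, and 0 passed an unadjusted p of 0.05. Without WT replicate 2, 34 were above 0 and 36 below, with a median of -0.01, and 1 gene in each direction passed an unadjusted p of 0.05. Among the other glucose transporters, 8 of 12 had counts, 3 of them at a mean of at least 1 CPM, and 4 were above 0 and 4 below, with medians of 0.14 and, without WT replicate 2, -0.08. With other single libraries left out the median ran from -0.26 (without cKO replicate 1) to 1.503 (without WT replicate 1). The most abundant were Slc2a8, an intracellular sugar transporter, at 25.4, 4.56 and 16.8 CPM in WT and 24.4, 19.9 and 21.9 CPM in cKO, and Slc2a9, a urate transporter, at 10.9, 26.6 and 10.8 CPM in WT and 12.5, 13.7 and 15.3 CPM in cKO. In both, WT replicate 2 was the extreme library, at the bottom for Slc2a8 and at the top for Slc2a9.

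Among the other amino acid transporters, 24 of 29 had counts, with 11 above 0 and 13 below and medians of -0.07 and 0.00. In 1 of them, Slc36a1, a lysosomal amino acid exporter named after its values were seen, the cKO libraries were all below the WT libraries, an order found for 3.23% of all genes. Slc36a1 had 9.56, 6.97 and 8.94 CPM in cKO against 10.1, 11.2 and 10.5 CPM in WT, with an edgeR p of 0.331 before adjustment and an adjusted p of 0.984. Slc38a6, of the SNAT family, was at 255, 657 and 346 CPM in WT and 317, 242 and 352 CPM in cKO, a log2 fold change of -0.46 that became 0.02 without WT replicate 2, its highest library. Slc38a10 was at 99.2, 125 and 93.1 CPM in WT and 94.7, 97.0 and 95.2 CPM in cKO. Slc36a4, a proline and tryptophan transporter, was the gene with an unadjusted p under 0.05 without WT replicate 2. It was at 16.6, 6.39 and 14.7 CPM in WT and 12.2, 11.4 and 11.9 CPM in cKO, with log2 fold changes of -0.09 over 6 libraries and -0.41 without that library (edgeR p before adjustment 0.0316, adjusted p 0.997). Among the other monocarboxylate transporters and their chaperones, 10 of 15 had counts, with 6 above 0 and 4 below and medians of 0.12 and -0.08.

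The list of regulators held 9 genes, all with counts, of which 4 were above 0 and 5 below, with medians of -0.11 and 0.03. Txnip, an arrestin-related protein that draws GLUT1 away from the surface and whose gene is induced by glucose, had 235, 327 and 489.5 CPM in WT and 430.4, 584 and 651 CPM in cKO. The groups overlapped only through WT replicate 3, which lay above cKO replicate 1. Its log2 fold change was 0.66 (SE 0.30), with an edgeR p of 0.0586 before adjustment and an adjusted p of 0.984, and 0.62 with a p of 0.0806 and an adjusted p of 0.997 without WT replicate 2. Atf4, the transcription factor that induces amino acid transporters under amino acid stress, was at 309, 426 and 398 CPM in WT and 336, 342 and 307 CPM in cKO, a log2 fold change of -0.20, and -0.11 without WT replicate 2. Nedd4l, a ubiquitin ligase of membrane transporters, was the gene with an unadjusted p under 0.05 in the upward direction without WT replicate 2. It was at 7.93, 34.3 and 10.2 CPM in WT and 14.1, 13.1 and 21.6 CPM in cKO, so that its log2 fold change of 0.84 (edgeR p before adjustment 0.0096, adjusted p 0.997) became -0.11 when WT replicate 2, its highest library, was included.

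**Figure D5:**
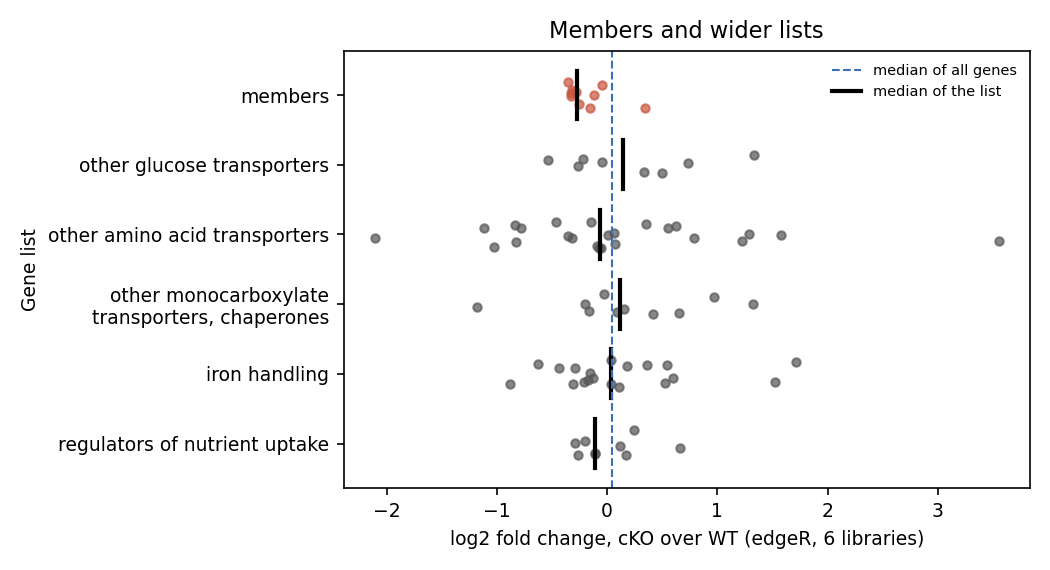
Log2 fold change, cKO over WT (edgeR, 6 libraries), of each member and of each gene with counts in the 5 wider lists, with a black bar at the median of each list and a dashed line at the median of all genes, 0.04. The members lie between -0.35 and 0.34, and the wider spread of the other lists includes genes with few counts.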

How the data were processed

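RNA was extracted from Tregs of lung tumors and sequenced as 150-base paired-end reads in 3 WT and 3 cKO libraries. For each gene symbol the deposited table gives an expected count of reads aligned to GRCm38, which the authors did not normalize. The submitters' processing notes name Bowtie2 (2.3.4.3) and RSEM (1.3.1), and the annotation is not given in the sources used here. Fractional counts made up 21.6% of the table, and all counts were rounded. The 15315 genes with at least 1 count were tested with edgeR's quasi-likelihood test (edgeR 4.0.16, limma 3.58.1, R 4.3.3), TMM scaling and Benjamini-Hochberg adjustment over all of them. In CPM, 3 counts (the upper limit for a gene at 0) came to 0.133 to 0.156 depending on the library, a limit for counting error only.

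The scripts were tested on simulated data. No pair of replicates matched within sampling noise, so each library counted as 1 sample. The replicate numbers were not taken to pair the libraries. Same-numbered libraries deviated together in 2 of 3 pairs, which cannot settle whether they are paired. Positions, lengths and transcript sequences came from GENCODE vM21. The members, the gene lists and the naming rule were chosen with earlier results of these data known. Besides the members, the text names Xrcc6, Bsg, Emb, the 2 most abundant genes per kb of each wider list, up to 3 genes per list with an unadjusted p under 0.05, and the nearest member of each member. The alternatives were DESeq2 (1.42.0) with and without WT replicate 2, median-of-ratios factors, library totals, filterByExpr (minimum count 10), limma voomWithQualityWeights, the replicate number as a block, leaving out each library and, for levels, the longest transcript. Leaving libraries out of the ratios was added after seeing the data.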

Additional observations from a re-analysis of the deposited data

How the results depend on the processing

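Of 130 recomputed log2 fold changes of the members, 123 kept their sign and 7 did not. Slc7a5 was at 0.13 with voomWithQualityWeights and 0.21 in DESeq2 without WT replicate 2, and between -0.21 and 0.21 with 1 library left out. Slc38a2 was at 0.028 in DESeq2 without WT replicate 2 and between -0.52 and 0.031 with 1 library left out. Slc16a3 lay between -0.61 and 0.15. In edgeR 0 genes passed an adjusted p of 0.05, against 2 in DESeq2 and 3 in DESeq2 without WT replicate 2, and 0 to 1 with 1 library left out. At an unadjusted p of 0.05, 277 genes passed, against 140 with filterByExpr, 543 with voomWithQualityWeights and 65 to 874 with 1 library left out (874 without WT replicate 1, 65 without cKO replicate 3). The number of genes was 307 in DESeq2, 370 in DESeq2 without WT replicate 2 and 268 in edgeR with library totals. Of the 10 members, 1 passed an unadjusted p of 0.05 in edgeR over 6 libraries. In DESeq2, in DESeq2 without WT replicate 2 and with voomWithQualityWeights 2 members passed, and with library totals 0. With 1 library left out 0 to 3 members passed (3 without WT replicate 1). With the replicate number as a block, 85 genes and 0 members passed an unadjusted p of 0.05. Correlations of deviations between same-numbered libraries were 0.114, -0.0941 and 0.211 over 11568 genes, and those between different-numbered libraries ran from -0.280 to 0.161. With 3 libraries a group, each centered on its group, these values cannot settle whether the numbers pair the samples. With the longest transcript, 6 of 10 members kept their rank. The cause of these shifts was not tested. With 3 libraries a group, the 95% interval of the fold ran from 0.742 to 1.14 for Slc2a1 and from 0.433 to 1.47 for Slc16a3. Changes inside those ranges are not excluded for these genes.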
